A study of Rattus norvegicus with 10 samples.

Results

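The genes described here are the collagens, the laminins and 4 further basement membrane genes (Nid1, Nid2, Hspg2 and Agrn) of the rat left ventricle after GATA-4 gene transfer. Members were taken by gene symbol alone, as every probe set whose platform symbol names a collagen chain, a laminin alpha, beta or gamma chain, or 1 of those 4 genes. The rule found 55 genes, of 14217 genes that have a probe set naming 1 gene, and 77 probe sets read them. A probe set is a group of short probes that together read 1 transcript, and where a gene had more than 1, as 18 members had, the brightest stood for it. A filter on dim probe sets (mean log2 signal above 5.17) left 36 of the 55 members for testing, among 10688 genes tested in all.

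Total RNA came from the left ventricle of male Sprague-Dawley rats weighing 250 to 300 g, 3 days after gene transfer. In one group of 5 samples the transferred gene was that of GATA-4, a DNA-binding protein that regulates genes of the heart muscle cell, and the other group of 5, the controls, received LacZ, which encodes beta-galactosidase of bacteria. Both groups therefore received a gene transfer, and no untreated sample enters any comparison. The labels used here do not state age, vector, dose or injection site, and nothing states that the samples of a group came from separate animals, so p-values measure the spread between these samples.

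Collagens are triple helices of 3 alpha chains, and their genes fall into families by the structure that the protein builds. Fibrillar collagens form the fibres that hold heart muscle bundles together, and FACIT collagens lie on the surface of those fibres. Basement membranes, the thin sheets around each heart muscle cell and under the endothelium, are made of a collagen IV network and a laminin network, joined by nidogens and by the proteoglycans perlecan and agrin. In the heart most fibrillar collagen comes from fibroblasts, while basement membrane components come from heart muscle cells, endothelial cells and mural cells as well.

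The transferred gene was checked first. The brighter Gata4 probe set read 10.49, 10.82, 10.63, 10.72 and 10.58 on LacZ arrays 1 to 5 and 11.58, 11.28, 11.36, 11.59 and 11.42 on GATA-4 arrays 1 to 5. All 5 GATA-4 arrays were above all 5 LacZ arrays, and the difference of 0.79 in log2 signal (SE 0.086, 1.73-fold) had an adjusted p of 0.00131 in limma. The other Gata4 probe set was too dim to be tested, and its groups overlapped. It read 4.44 ± 1.11 (SD, n = 5) with LacZ and 5.24 ± 0.65 (SD, n = 5) with GATA-4. Here and below, a difference is the GATA-4 mean minus the LacZ mean of log2 signal over 5 arrays each, its adjusted p is limma's with the Benjamini-Hochberg adjustment over the 18625 probe sets tested, and a gene is said to have risen or fallen where that p was under 0.05.

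One array stood apart in brightness. The trimmed mean of the deposited signals was 143 on GATA-4 array 1 and 250.2 to 329.9 on the other 9 arrays, and results are therefore also given without that array. Over all probe sets tested, 566 rose and 422 fell, and with arrays only centred on their medians, in place of quantile normalisation, these counts were 322 and 401. On the deposited scale, with no normalisation, 9 probe sets rose and 0 fell.

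**Figure D1:**
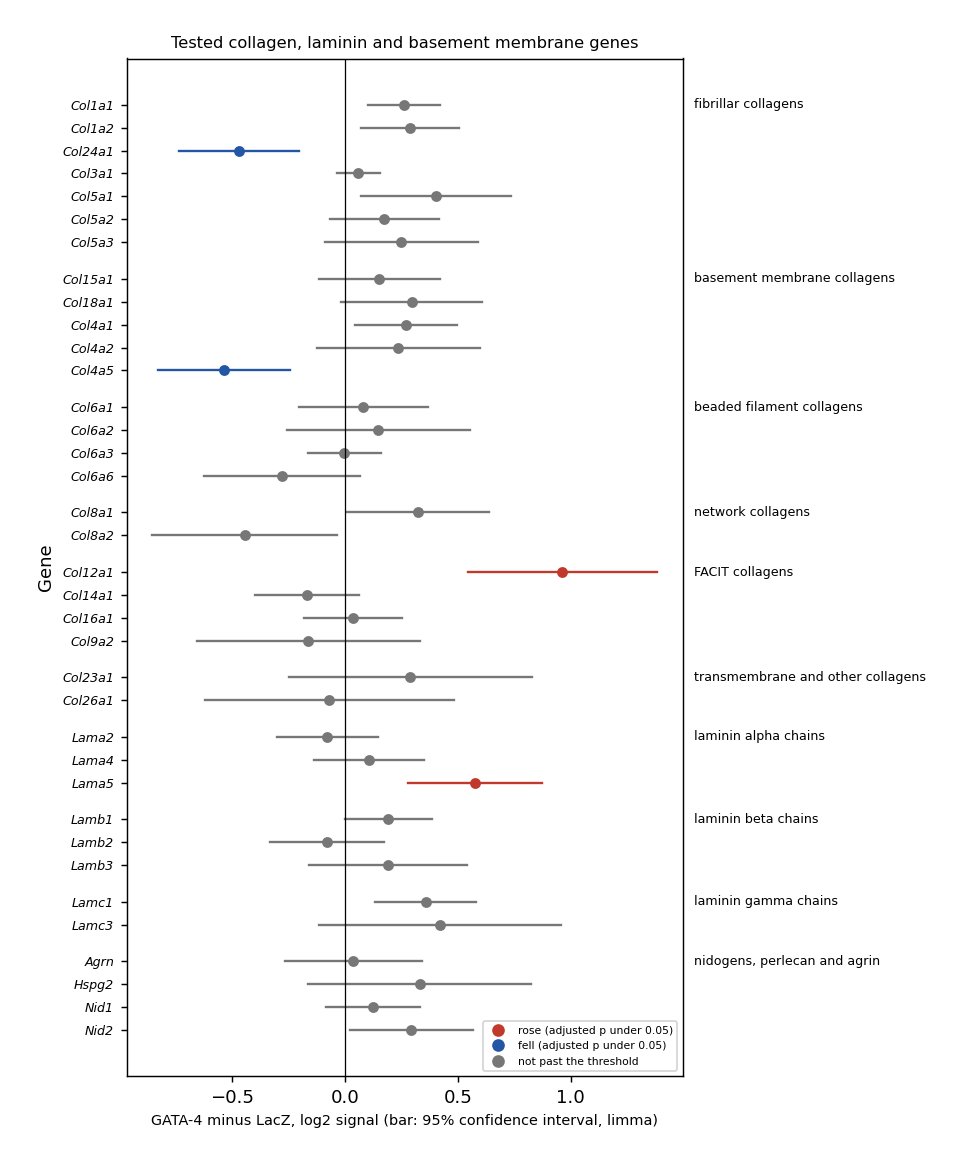
The difference between GATA-4 and LacZ arrays in log2 signal (x axis) is plotted for each of the 36 tested members (y axis, in blocks by role), each point a limma estimate from 5 against 5 arrays with its 95% confidence interval as a bar. Col12a1 and Lama5 are coloured as having risen, Col4a5 and Col24a1 as having fallen, and 26 of the 36 points lie right of 0.

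After GATA-4 transfer 4 of the 36 tested members changed. Col12a1, a collagen on the surface of fibres in tissues under tension, and Lama5, a laminin alpha chain of mature basement membranes, rose. Col4a5, a collagen IV chain whose human gene is mutated in Alport syndrome, and Col24a1, a minor fibrillar collagen, fell. In RNA of whole ventricle, more or fewer cells of a type cannot be told apart from more or less RNA per cell. These 4 are 11.1% of the tested members, beside 6.37% of all genes tested. In each direction the members' share was 5.56%, beside 3.71% of all genes that rose and 2.66% that fell. Of the members, 26 had a positive difference (72.2%, beside 47.4% of all genes), and the members' median difference was 0.16, beside -0.017 over all genes. The 26 include Col23a1, which was above the filter only through its GATA-4 values. With arrays centred on their medians 23 of the 36 were positive and the median was 0.063, beside -0.056 over all genes, and as deposited these were 23, 0.065 and -0.054. Groups did not overlap for 3 of the 36 members (8.33%, beside 9.66% of all genes), namely Lama5, Col4a5 and Col24a1, and the unadjusted p was under 0.05 for 12 (33.3%, beside 24.2%).

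The count of 4 depended on single arrays. Without GATA-4 array 1, the dim one, 5 members rose (Col1a1, Col5a2, Col12a1, Lama5 and Lamc1) and the same 2 fell, where 9.95% of all genes rose and 8.86% fell, and the members' median difference was 0.083. Without GATA-4 array 2, 4 rose and 2 fell, beside 2.89% and 2.22% of all genes, and without GATA-4 array 3, 3 rose and 0 fell, beside 1.5% and 0.759%. Leaving out GATA-4 array 4 or 5 or LacZ array 1, 2 or 4 left 1 that rose and 0 that fell, where 1.86% to 2.71% of all genes rose and 0.655% to 1.5% fell. Leaving out LacZ array 3 or 5 left 0 and 0, where 0.944% and 1.59% of all genes rose and 0.187% and 0.561% fell. On the deposited scale no member passed, and Gata4 itself had an adjusted p of 0.993 there.

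The promoter windows of members that changed are shown because the transferred gene encodes a factor that binds DNA. They are 250 bases before the annotated start, from RefSeq on assembly GRCr8, in lower case with matches to the GC box GGGCGG on either strand in capitals. Lama5 lies on the minus strand at chr3:187695975-187696224, Col4a5 on the plus strand at chrX:109907109-109907358 and Col24a1 on the plus strand at chr2:236872333-236872582. The fourth stretch lies between the starts of Col4a2 and Col4a1, which face away from each other 76 bases apart on chromosome 16, printed on the plus strand at chr16:84885521-84885596. Col12a1 was not matched to a promoter.
Lama5: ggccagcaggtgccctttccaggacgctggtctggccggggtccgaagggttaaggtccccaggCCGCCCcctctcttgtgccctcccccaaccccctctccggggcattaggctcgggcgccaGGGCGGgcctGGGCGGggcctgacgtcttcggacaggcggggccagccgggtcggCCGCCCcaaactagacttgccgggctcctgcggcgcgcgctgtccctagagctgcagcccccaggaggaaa
Col4a5: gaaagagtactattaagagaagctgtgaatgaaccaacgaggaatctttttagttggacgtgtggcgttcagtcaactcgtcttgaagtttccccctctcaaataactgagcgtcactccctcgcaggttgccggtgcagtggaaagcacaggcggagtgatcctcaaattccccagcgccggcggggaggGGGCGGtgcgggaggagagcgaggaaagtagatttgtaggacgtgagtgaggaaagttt
Col24a1: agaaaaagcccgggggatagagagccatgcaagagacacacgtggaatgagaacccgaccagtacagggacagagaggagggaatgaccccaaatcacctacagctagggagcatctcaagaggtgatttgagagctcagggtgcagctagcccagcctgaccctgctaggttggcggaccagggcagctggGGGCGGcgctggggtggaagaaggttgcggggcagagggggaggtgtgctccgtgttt
Col4a2-Col4a1: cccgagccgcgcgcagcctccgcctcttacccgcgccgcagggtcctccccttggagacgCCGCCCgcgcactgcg

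Promoters were matched for 44 of the 55 members. Lama5 held 4 matches to the GC box, at 186, 126, 116 and 71 bases before the start, Col4a5 held 1 at 59 and Col24a1 held 1 at 58. Over the members 25 of 44 windows held a GC box (56.8%), beside 32.4% of all 27457 promoters. The member windows were those at the RefSeq gene start where listed, while the 27457 were the first listed for each gene. The latter were not limited by gene type, so the shares here and below compare windows not chosen alike. The GATA motif, searched on either strand as the core GATA with an A or T before it and an A or G after it, was in 5 of the 44 windows (11.4%, those of Col17a1, Col18a1, Col27a1, Col4a6 and Lama1), beside 26.7% of all promoters, and in none of the 4 stretches printed. These are matches of letters within 250 bases and describe no binding. CCAAT, on either strand, was in 12 of 44 (27.3%, beside 34.3%) and TATAAA in 5 of 44 (11.4%, beside 13.1%). The genes that share the 76 bases had differences of 0.24 for Col4a2 and 0.27 for Col4a1, and the log2 ratio of Col4a1 to Col4a2 differed by 0.033 between groups (exact permutation p = 0.849). When the dim GATA-4 array 1 was left out, the differences were 0.068 for Col4a2 and 0.21 for Col4a1, and the ratio of Col4a1 to Col4a2 differed by 0.14 (adjusted p = 0.0688, exact permutation test). The other neighbouring members with both genes tested were Col3a1 and Col5a2, at 0.060 and 0.18, and Col6a1 and Col6a2, at 0.082 and 0.15.

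Col12a1 had the largest difference of the 36 tested members. It read 7.39, 7.22, 6.81, 6.65 and 6.83 on LacZ arrays 1 to 5 and 7.30, 8.28, 7.93, 8.05 and 8.16 on GATA-4 arrays 1 to 5. The dim GATA-4 array 1, at 7.30, lay among the LacZ values, while the other 4 GATA-4 arrays lay above all 5 LacZ arrays. Means were 6.98 ± 0.31 (SD, n = 5) with LacZ and 7.94 ± 0.38 (SD, n = 5) with GATA-4, a difference of 0.96 (SE 0.19, 95% confidence interval 0.54 to 1.38), or 1.95-fold, with an adjusted p of 0.0190 in limma. Without GATA-4 array 1 the difference was 1.13, or 2.19-fold (adjusted p = 0.00124). The adjusted p was 0.0658 without LacZ array 3 and 0.0516 without LacZ array 5. The other FACIT collagens tested were Col14a1, which coats mature fibres, at -0.17 (SE 0.11, adjusted p = 0.390) from 10.12 ± 0.10 (SD, n = 5) with LacZ and 9.96 ± 0.22 (SD, n = 5) with GATA-4, Col16a1 at 0.035 (SE 0.10, adjusted p = 0.870) and the cartilage collagen Col9a2 at -0.16 (SE 0.23, adjusted p = 0.726). Of the 4 tested FACIT genes 1, Col12a1, rose and 0 fell (beside 3.71% and 2.66% of all genes).

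**Figure D2:**
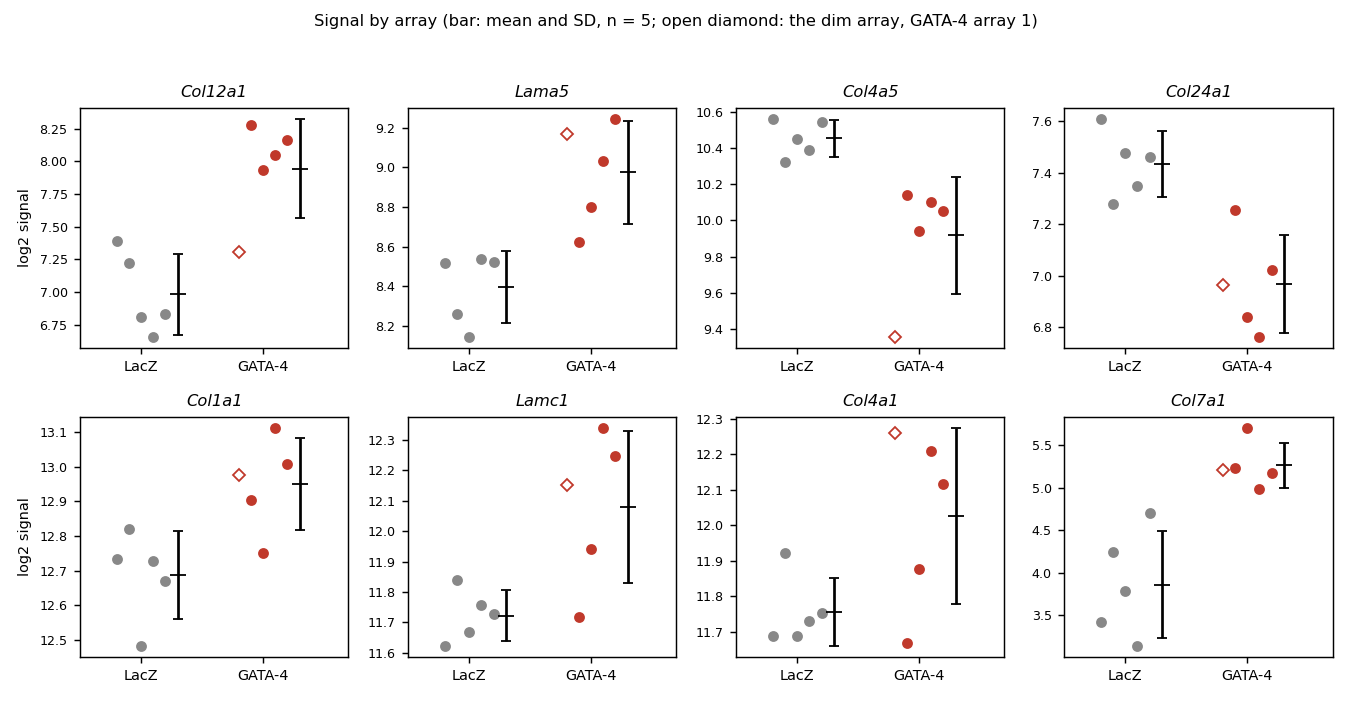
Log2 signal (y axis, a separate scale in each panel that does not start at 0) is shown for every array of the LacZ and GATA-4 groups (x axis) for 8 members, with the mean and SD of 5 arrays as a bar and the dim GATA-4 array 1 as an open diamond. Lama5, Col4a5, Col24a1 and Col7a1 show no overlap between the groups, and in Col12a1 only the open diamond lies among the LacZ points.

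Fibrillar collagens make the bulk of the matrix between heart muscle cells. Of 7 tested, 0 rose and 1, Col24a1, fell in limma (beside 3.71% and 2.66% of all genes). The unadjusted p was under 0.05 for 4 of the 7 (beside 24.2% of all genes). The median difference was 0.25 with all arrays and 0.25 without GATA-4 array 1. Col24a1 read 7.61, 7.28, 7.48, 7.35 and 7.46 on LacZ arrays 1 to 5 and 6.96, 7.26, 6.84, 6.76 and 7.02 on GATA-4 arrays 1 to 5. Every GATA-4 array lay below every LacZ array, though only just: the highest GATA-4 value, 7.26 on array 2, was next to the lowest LacZ value, 7.28. Means were 7.43 ± 0.13 (SD, n = 5) with LacZ and 6.97 ± 0.19 (SD, n = 5) with GATA-4, a difference of -0.47 (SE 0.12), 1.38-fold lower, with an adjusted p of 0.0463. The adjusted p stayed under the threshold without GATA-4 array 1 (0.0247) or GATA-4 array 2 (0.0341), and was 0.0576 to 0.123 when any of the other 8 arrays was left out. It was 0.0593 with median centring, 0.0824 without the filter and 0.0509 without the intensity trend.

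The chains of collagen I, the main fibre collagen of the heart, did not pass the threshold. Col1a1 read 12.73, 12.82, 12.48, 12.73 and 12.67 on LacZ arrays 1 to 5 and 12.98, 12.90, 12.75, 13.11 and 13.01 on GATA-4 arrays 1 to 5. The GATA-4 values reached higher, but GATA-4 array 3 at 12.75 lay below the highest LacZ array. The difference was 0.26 (SE 0.074, adjusted p = 0.0571). Its partner chain Col1a2 read 12.54 ± 0.15 (SD, n = 5) with LacZ and 12.82 ± 0.22 (SD, n = 5) with GATA-4, a difference of 0.29 (SE 0.10, adjusted p = 0.112). Col3a1, which forms the finer fibres that accompany collagen I, read 13.28 ± 0.068 (SD, n = 5) with LacZ and 13.34 ± 0.057 (SD, n = 5) with GATA-4, a difference of 0.060 (SE 0.044, adjusted p = 0.451) whose sign turned with the scaling (-0.015 as deposited and -0.017 with median centring). Collagen V starts and thins the fibres: Col5a1 differed by 0.40 (SE 0.15, adjusted p = 0.147), Col5a2 by 0.18 (SE 0.11, adjusted p = 0.382) and Col5a3 by 0.25 (SE 0.16, adjusted p = 0.377). Without GATA-4 array 1, Col1a1 rose by 0.25 (adjusted p = 0.0391) and Col5a2 by 0.28 (0.0249), and without GATA-4 array 3 Col1a1 passed too (0.0430), as did Col5a1 (0.0404). Col5a1 read 10.40, 10.59, 10.16, 10.51 and 10.16 on LacZ arrays 1 to 5 and 10.73, 11.00, 10.20, 11.10 and 10.79 on GATA-4 arrays 1 to 5, and GATA-4 array 3 was the lowest array of its group.

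A second probe set gave higher differences for some of these genes. Of 12 members with 2 tested probe sets, the differences of both had the same sign in 9. The dimmer Col1a1 probe set read 11.35 ± 0.22 (SD, n = 5) with LacZ and 11.85 ± 0.21 (SD, n = 5) with GATA-4 and rose by 0.50 (1.41-fold, adjusted p = 0.0297), beside 0.26 for the brighter one. The dimmer Col5a1 probe set rose by 0.48 (SE 0.099, 1.39-fold, adjusted p = 0.0209), and that of Col18a1 by 0.71 (SE 0.15, 1.63-fold, adjusted p = 0.0229). Over all 48 tested member probe sets, 5 rose and 2 fell, 14.6% beside 5.3% of all probe sets tested. Both tested Col1a2 probe sets lay close together, at 0.29 and 0.31. The 2 Col5a2 probe sets had opposite signs, 0.18 and -0.10, as had those of Col6a2 (0.15 and -0.16) and Col6a3 (-0.0017 and 0.36). Without GATA-4 array 1 the dimmer Col5a2 probe set was at 0.069 and the dimmer Nid1 probe set at -0.083. The dimmer Col1a2 probe set then rose by 0.39 (adjusted p = 0.00864 in limma), and the dimmer ones of Col1a1, Col5a1 and Col18a1 stayed called. The difference between probe sets of a gene was itself tested within each array, a check chosen after the values were seen, and 0 of the 12 pairs passed adjustment, with 3 at an unadjusted p under 0.05. The lowest exact permutation p was 0.00794 for Col1a1, the smallest that 5 against 5 arrays can give, with an adjusted value of 0.0952. A single pair could therefore not pass, and the count of 0 does not show that the probe sets of a gene read alike. The other 2 probe sets of Col12a1 were too dim to be tested, and with probe sets averaged Col12a1 was itself under the filter.

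Among basement membrane collagens 0 of 5 tested genes rose and 1 fell in limma (beside 3.71% and 2.66% of all genes). The unadjusted p was under 0.05 for 2 (beside 24.2% of all genes). The one that fell was Col4a5, which read 10.56, 10.32, 10.45, 10.39 and 10.54 on LacZ arrays 1 to 5 and 9.36, 10.14, 9.94, 10.10 and 10.05 on GATA-4 arrays 1 to 5. All GATA-4 arrays lay below all LacZ arrays, and the dim GATA-4 array 1 was the lowest. Means were 10.45 ± 0.10 (SD, n = 5) with LacZ and 9.92 ± 0.32 (SD, n = 5) with GATA-4, a difference of -0.53 (SE 0.14), 1.45-fold lower, with an adjusted p of 0.0403. Without GATA-4 array 1 the difference was -0.39, 1.31-fold lower (adjusted p = 0.00495), and without GATA-4 array 2 the adjusted p was 0.0387. Leaving out any of the other 8 arrays gave 0.0554 to 0.102, the fit without the filter 0.0607 and that without the trend 0.0733.

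The abundant collagen IV chains, Col4a1 and Col4a2, join into the network common to nearly all basement membranes. Col4a1 read 11.69, 11.92, 11.69, 11.73 and 11.75 on LacZ arrays 1 to 5 and 12.26, 11.67, 11.88, 12.21 and 12.12 on GATA-4 arrays 1 to 5. The GATA-4 arrays spread to both sides of the LacZ range, with array 2 below it, array 3 within it and arrays 1, 4 and 5 above it, and the difference was 0.27 (SE 0.10, adjusted p = 0.149). Col4a2 read 11.37, 11.46, 11.32, 11.34 and 11.49 on LacZ arrays 1 to 5 and 12.30, 11.07, 11.44, 11.69 and 11.65 on GATA-4 arrays 1 to 5, with the dim array the highest of all 10 and a difference of 0.24 (SE 0.17, adjusted p = 0.431), which was 0.068 without that array. Without GATA-4 array 2 the adjusted p of Col4a1 was 0.0366. The multiplexin collagens, which carry heparan or chondroitin sulfate chains, gave 0.15 (SE 0.12, adjusted p = 0.502) for Col15a1 and 0.30 (SE 0.14, adjusted p = 0.251) for Col18a1, the precursor of endostatin. The median of the 5 genes was 0.24 with all arrays and 0.076 without the dim array.

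Lama5 was the only laminin chain of 8 tested that passed the threshold (beside 6.37% of all genes that changed and 3.71% that rose). It read 8.52, 8.26, 8.14, 8.54 and 8.52 on LacZ arrays 1 to 5 and 9.17, 8.62, 8.80, 9.03 and 9.24 on GATA-4 arrays 1 to 5. All GATA-4 arrays lay above all LacZ arrays. Means were 8.40 ± 0.18 (SD, n = 5) with LacZ and 8.97 ± 0.26 (SD, n = 5) with GATA-4, a difference of 0.58 (SE 0.14, 95% confidence interval 0.28 to 0.87), or 1.49-fold, with an adjusted p of 0.0312. The adjusted p was 0.0192 without GATA-4 array 1 and 0.0202 without GATA-4 array 2, where Lama5 remained called. It was 0.0523 to 0.0984 when any of the other 8 arrays was left out, and 0.0508 without the trend. The other 2 Lama5 probe sets, too dim to be tested, had differences of the opposite sign: 1 read 4.72 ± 0.22 (SD, n = 5) with LacZ and 4.08 ± 0.70 (SD, n = 5) with GATA-4, and 1 read 1.99 ± 0.94 (SD, n = 5) and 0.75 ± 1.22 (SD, n = 5). With the 3 probe sets averaged, Lama5 was under the filter. Lama2, the alpha chain around heart muscle cells whose loss causes a muscular dystrophy, read 11.20 ± 0.030 (SD, n = 5) with LacZ and 11.12 ± 0.25 (SD, n = 5) with GATA-4, a difference of -0.078 (SE 0.10, adjusted p = 0.707). Lama4, an alpha chain of vessels and muscle, read 9.99 ± 0.14 (SD, n = 5) with LacZ and 10.10 ± 0.21 (SD, n = 5) with GATA-4, a difference of 0.11 (SE 0.11, adjusted p = 0.619).

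The beta and gamma chains pair with these alpha chains in every laminin trimer. Lamc1, the gamma chain of most laminins, read 11.62, 11.84, 11.67, 11.76 and 11.73 on LacZ arrays 1 to 5 and 12.15, 11.72, 11.94, 12.34 and 12.25 on GATA-4 arrays 1 to 5. GATA-4 array 2 lay within the LacZ range and the other 4 GATA-4 arrays above it, with a difference of 0.36 (SE 0.10, adjusted p = 0.0632). Lamc1 passed without GATA-4 array 1 (0.33, adjusted p = 0.0479) and without GATA-4 array 2 (adjusted p = 0.0165). Lamc3, a gamma chain of restricted expression, read 5.37 ± 0.46 (SD, n = 5) with LacZ and 5.79 ± 0.34 (SD, n = 5) with GATA-4, a difference of 0.42 (SE 0.25, adjusted p = 0.346). Lamb1, an early beta chain, read 10.78 ± 0.098 (SD, n = 5) with LacZ and 10.98 ± 0.17 (SD, n = 5) with GATA-4, a difference of 0.19 (SE 0.090, adjusted p = 0.228). Lamb2, the beta chain of mature muscle and of synapses, read 11.56 ± 0.12 (SD, n = 5) with LacZ and 11.48 ± 0.28 (SD, n = 5) with GATA-4, a difference of -0.078 (SE 0.12, adjusted p = 0.740), and Lamb3, an epithelial beta chain, had one of 0.19 (SE 0.16, adjusted p = 0.525).

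Of the 4 genes that join the laminin and collagen IV networks 0 passed in limma (beside 6.37% of all genes). The unadjusted p was under 0.05 for 1 (beside 24.2% of all genes). Nid1 read 11.11 ± 0.14 (SD, n = 5) with LacZ and 11.23 ± 0.18 (SD, n = 5) with GATA-4, a difference of 0.13 (SE 0.096, adjusted p = 0.477), and Nid2 read 8.89 ± 0.17 (SD, n = 5) with LacZ and 9.18 ± 0.22 (SD, n = 5) with GATA-4, a difference of 0.30 (SE 0.13, adjusted p = 0.189). Hspg2, which encodes perlecan, read 9.40, 9.54, 9.32, 9.47 and 9.05 on LacZ arrays 1 to 5 and 10.65, 9.12, 9.34, 9.63 and 9.69 on GATA-4 arrays 1 to 5. The dim GATA-4 array 1 was the highest of the 10 and the difference was 0.33 (SE 0.23, adjusted p = 0.423), which was 0.090 without that array. Agrn, which encodes agrin, read 9.31 ± 0.093 (SD, n = 5) with LacZ and 9.35 ± 0.33 (SD, n = 5) with GATA-4, a difference of 0.038 (SE 0.14, adjusted p = 0.901) that was -0.020 as deposited and -0.023 with median centring.

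Collagen VI forms beaded filaments next to basement membranes, and 0 of its 4 tested genes passed in limma (beside 6.37% of all genes). The unadjusted p was under 0.05 for 0 of them (beside 24.2% of all genes). Col6a1 had a difference of 0.082 (SE 0.13, adjusted p = 0.760), with a negative sign as deposited (-0.014) and with median centring (-0.016). Col6a2 had one of 0.15 (SE 0.19, adjusted p = 0.689), Col6a3 of -0.0017 (SE 0.075, adjusted p = 0.992) and Col6a6, which read 6.92 ± 0.25 (SD, n = 5) with LacZ and 6.64 ± 0.25 (SD, n = 5) with GATA-4, of -0.28 (SE 0.16, adjusted p = 0.330). Network collagen VIII is a product of vessel walls, and its chains had opposite signs, 0.32 (SE 0.15, adjusted p = 0.214) for Col8a1 and -0.44 (SE 0.19, adjusted p = 0.192) for Col8a2, which read 6.65 ± 0.34 (SD, n = 5) with LacZ and 6.21 ± 0.28 (SD, n = 5) with GATA-4. The 2 remaining tested collagens were the transmembrane Col23a1, at 0.29 (SE 0.25), and Col26a1, at -0.068 (SE 0.25, adjusted p = 0.903). Col23a1 read 5.16 with LacZ and 5.45 with GATA-4. It was above the filter only through its GATA-4 values, so its difference is a description.

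**Figure D3:**
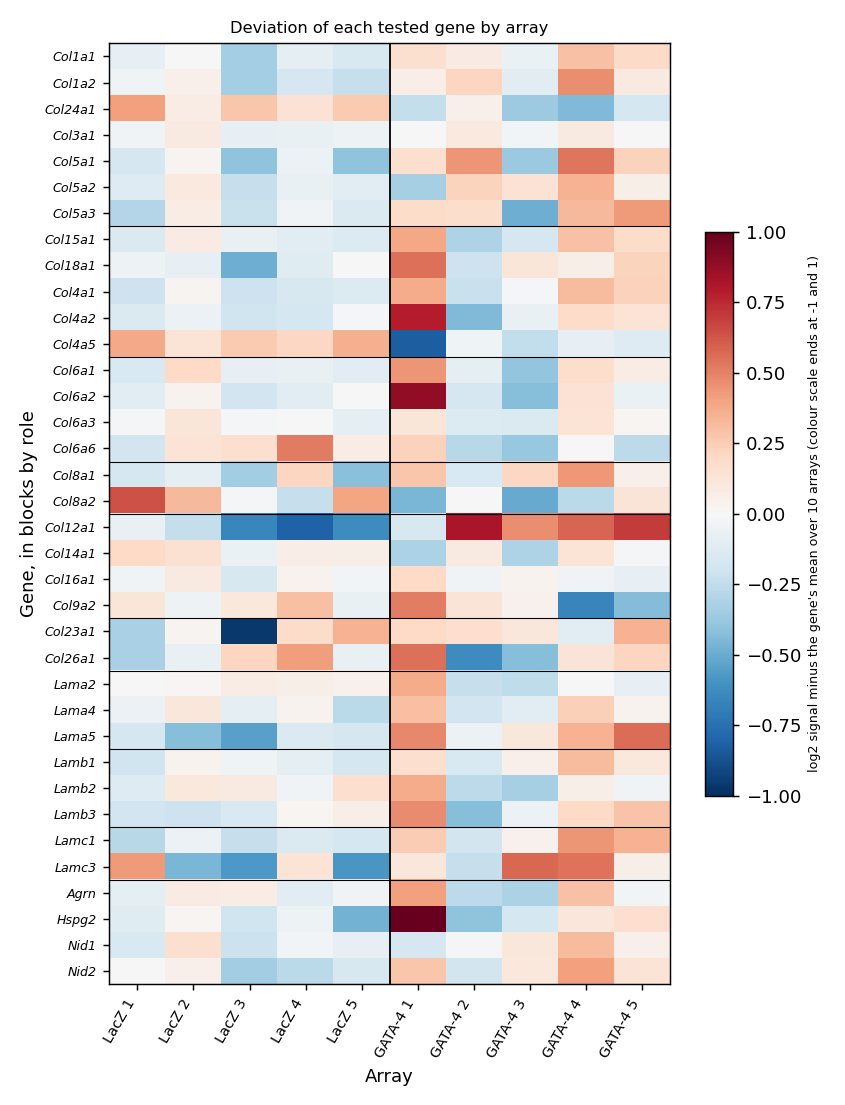
Each cell gives the log2 signal of a tested member (y axis, blocks by role) on an array (x axis, LacZ left of the line and GATA-4 right) minus that gene's mean over the 10 arrays, with colour ending at -1 and 1. The members' mean deviation was 0.22 on GATA-4 array 1, 0.18 on array 4 and 0.10 on array 5, and -0.079 and -0.10 on GATA-4 arrays 2 and 3.

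The GATA-4 arrays did not move as one over the members. Averaged over the 36 tested members, the deviation from each gene's mean was -0.052, 0.016, -0.17, -0.023 and -0.088 on LacZ arrays 1 to 5 and 0.22, -0.079, -0.10, 0.18 and 0.10 on GATA-4 arrays 1 to 5. GATA-4 arrays 2 and 3 thus lay within the LacZ range, and arrays 1, 4 and 5 above it. GATA-4 array 1 held the highest of the 10 values for 15 of the 36 members (41.7%, beside 25.0% of all genes) and the lowest for 3 (8.33%, beside 26.3%). GATA-4 array 4 held the highest for 10 members (27.8%, beside 7.23%). GATA-4 array 3 held the lowest for 9 members (25.0%, beside 10.8%), as did LacZ array 3 (25.0%, beside 10.3%). The part of the dim array's brightness in these shares was not tested.

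Genes whose chains share a molecule or a role were compared by their ratio within each array, in which a factor common to the whole array cancels. Of 13 such pairs chosen by the chains' biology, 0 passed the Benjamini-Hochberg adjustment over the 13 at 0.05, and 5 had an unadjusted exact two-sided permutation p under 0.05. Each of these 5 had an adjusted p of 0.103. The smallest exact p that 5 against 5 arrays allow, 0.00794, also adjusts to 0.103 over 13 pairs when 1 pair reaches it, so a single ratio could not pass. The log2 ratio of Lama4 to Lama5 was 1.60 ± 0.26 (SD, n = 5) with LacZ and 1.13 ± 0.17 (SD, n = 5) with GATA-4, a difference of -0.47 at that smallest exact p, and it was the only ratio whose groups did not overlap. It was 0.50, with the opposite sign, when all probe sets of each gene were averaged, which brings in the dim Lama5 probe sets of opposite sign. The ratio of Col1a1 to Col3a1 differed by 0.20 (exact p = 0.0159), that of Lamb1 to Lamc1 by -0.16 (exact p = 0.0238), that of Lamb1 to Lamb2 by 0.27 (exact p = 0.0397) and that of Col8a1 to Col8a2 by 0.77 (exact p = 0.0397).

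**Figure D4:**
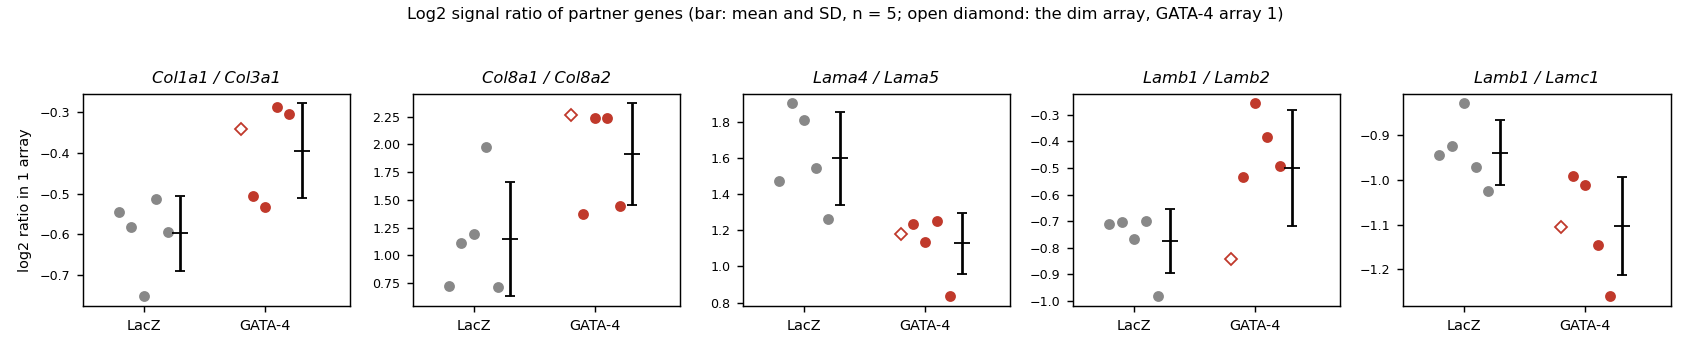
The log2 ratio of 2 partner genes within an array (y axis, a separate scale in each panel) is shown for every LacZ and GATA-4 array (x axis) for the 5 pairs with an unadjusted exact p under 0.05, with the mean and SD of 5 arrays as a bar and the dim array as an open diamond. Only the ratio of Lama4 to Lama5 shows no overlap, and none of the 5 passed adjustment over 13 pairs.

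The 19 members under the filter were Col2a1, Col4a4, Col4a6, Col6a5, Col7a1, Col9a1, Col9a3, Col10a1, Col11a1, Col11a2, Col13a1, Col17a1, Col19a1, Col20a1, Col22a1, Col25a1, Col27a1, Lama1 and Lama3. Groups did not overlap for 1 of them, Col7a1 (5.26%, beside 1.62% of all genes under the filter), which is singled out after its values were seen. Col7a1, the anchoring fibril collagen of epithelia, read 3.42, 4.25, 3.78, 3.14 and 4.70 on LacZ arrays 1 to 5 and 5.21, 5.23, 5.70, 4.98 and 5.18 on GATA-4 arrays 1 to 5. Means were 3.86 ± 0.63 (SD, n = 5) with LacZ and 5.26 ± 0.27 (SD, n = 5) with GATA-4, a difference of 1.40 that shrank to 0.81 when 16 signal units were added before taking logs. In limma without the filter its adjusted p was 0.0513. The chains Col4a3, Col6a4, Col21a1, Col28a1 and Lamb4, outside the 55, are not analysed here.

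The machinery that folds and modifies collagen chains in the cell was followed in a list of 27 genes, of which 24 were tested. Of these 24, 4 rose and 0 fell (beside 3.71% and 2.66% of all genes), and the median difference was 0.23, with 19 of 24 positive under quantile normalisation, median centring and the deposited scale alike. Plod2, which hydroxylates telopeptide lysines, read 9.68, 9.72, 9.39, 9.21 and 9.67 on LacZ arrays 1 to 5 and 9.78, 10.47, 10.38, 10.16 and 10.30 on GATA-4 arrays 1 to 5. All GATA-4 arrays lay above all LacZ arrays, and Plod2 rose 1.60-fold with a difference of 0.68 (SE 0.14, adjusted p = 0.0202). Plod3, a lysyl hydroxylase that also adds sugars, rose 1.48-fold with a difference of 0.57 (SE 0.12, adjusted p = 0.0200). Ppib, the cyclophilin that helps the helix fold, rose by 0.33 (SE 0.074, adjusted p = 0.0265), and P3h1, a prolyl 3-hydroxylase that works in a complex with it, by 0.45 (SE 0.12, adjusted p = 0.0456). Past the threshold lay neither the collagen chaperone Serpinh1, at 0.28 (SE 0.090, adjusted p = 0.0955), nor the lysyl oxidase family gene Loxl3, at 0.47 (SE 0.15, adjusted p = 0.0844). Pcolce, an enhancer of procollagen cleavage, rose by 0.55 (SE 0.12, adjusted p = 0.0248), and Bmp1, the protease it enhances, had a difference of -0.034 (SE 0.097, adjusted p = 0.872). These were the only 2 of 10 listed procollagen processing genes that could be tested.

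**Figure D5:**
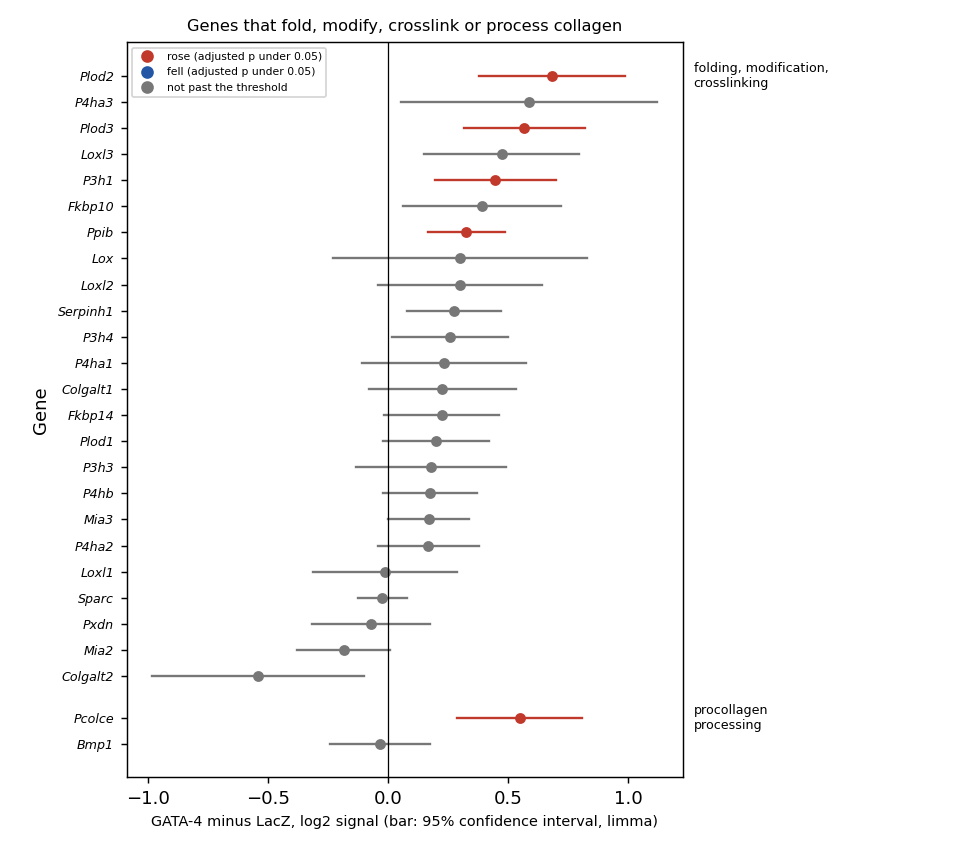
The difference between GATA-4 and LacZ arrays in log2 signal (x axis) is plotted for 24 folding, modification and crosslinking genes and 2 procollagen processing genes (y axis), with the 95% confidence interval of limma as a bar. Plod2, Plod3, P3h1, Ppib and Pcolce are coloured as having risen, and Colgalt2 is the lowest point at -0.54.

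These calls too moved with single arrays. The adjusted p of Plod3 was 0.0605 without LacZ array 3 and 0.0529 without LacZ array 5. That of Plod2 was 0.0692 without LacZ array 3 and 0.0523 without GATA-4 array 3. Ppib missed the threshold without LacZ array 1, 3, 4 or 5 or GATA-4 array 2 or 3 (0.0523 to 0.0848), and Pcolce without LacZ array 3 or 5 or GATA-4 array 3 or 4 (0.0519 to 0.0802). P3h1 stayed under the threshold only when GATA-4 array 1 was the one left out (0.0285), with 0.0515 to 0.127 without any of the other 9. With median centring Plod3 alone of the 4 folding genes passed (0.0317). Without GATA-4 array 1, 8 of the 24 rose and 0 fell, beside 9.95% and 8.86% of all genes.

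Receptors of collagen and laminin were tested for 12 of 22 listed genes, and 1 fell (beside 2.66% of all genes). Sgcb, a sarcoglycan of the complex that ties the muscle cell to laminin, fell by 0.25 (SE 0.059, adjusted p = 0.0312), and missed the threshold unless LacZ array 2, GATA-4 array 1 or GATA-4 array 2 was the array left out (0.0518 to 0.104 for the other 7). The receptors' median was 0.051 and turned to -0.035 on the deposited scale. Of 15 tested regulators of collagen transcription, 0 passed in limma and 4 had an unadjusted p under 0.05 (beside 6.37% and 24.2% of all genes). Tgfb1, the best known inducer of fibrillar collagen, had a difference of 0.62 (SE 0.19, adjusted p = 0.0792). When GATA-4 array 1 was left out, 5 of the 15 rose (beside 9.95% of all genes). Of 9 tested metalloproteinases and inhibitors, Timp1, a secreted inhibitor of matrix metalloproteinases, rose 2.06-fold with a difference of 1.04 (SE 0.13, adjusted p = 0.00303), and it passed whichever array was left out.

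The samples were whole left ventricle, and markers of its cell types were read in the same fit. Of 7 fibroblast markers, 1 rose (beside 3.71% of all genes), 1 had an unadjusted p under 0.05 (beside 24.2%), and the median was -0.20. The one that rose was Pdpn at 0.77 (SE 0.17, adjusted p = 0.0242), a gene also expressed by lymphatic endothelium and mesothelium. Summed over the list as a mean deviation, fibroblast markers ranged from -0.023 to 0.053 on the LacZ arrays and -0.24 to 0.29 on the GATA-4 arrays, where the lowest was the dim GATA-4 array 1 and the other 4 ran from -0.070 to 0.29. Without that array the fibroblast median was -0.12. With all arrays it was -0.30 both with median centring and on the deposited scale, where 0 of the 7 rose in either. Of 6 endothelial markers 0 passed in limma and 2 had an unadjusted p under 0.05 (beside 6.37% and 24.2% of all genes). Their median was -0.14, with a range of -0.036 to 0.16 on the LacZ arrays and -0.26 to 0.15 on the GATA-4 arrays. With the dim array left out, which gave the highest GATA-4 value, 2 of the 6 endothelial markers fell (beside 8.86% of all genes). Their median was then -0.24, and the other 4 GATA-4 arrays ran from -0.26 to 0.035. Of 7 smooth muscle and pericyte markers 0 passed (0 unadjusted), ranging from -0.18 to 0.021 on the LacZ arrays and -0.15 to 0.43 on the GATA-4 arrays, the highest being the dim GATA-4 array 1. All 6 heart muscle markers that the array names were tested, with mean log2 signals from 12.50 to 13.69, and 0 passed (0 unadjusted), ranging from -0.014 to 0.054 on the LacZ arrays and -0.046 to 0.041 on the GATA-4 arrays.

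Of 7 macrophage markers 5 rose, namely Tyrobp (1.24), Cd14 (0.86), Cd68 (0.69), Mrc1 (0.60) and Csf1r (0.54), with adjusted p from 0.000740 to 0.0265, beside 3.71% of all genes that rose. With median centring 4 of the 7 rose (beside 2.07% of all genes), Mrc1 having an adjusted p of 0.0781. Without GATA-4 array 1, 6 rose (beside 9.95% of all genes). The list ranged from -0.55 to -0.098 on the LacZ arrays and -0.027 to 0.51 on the GATA-4 arrays. Cd14 missed the threshold without LacZ array 3 (0.0511), and Mrc1 without LacZ array 1, 3 or 4 or GATA-4 array 3, 4 or 5 (0.0536 to 0.0834). Pdpn missed it without LacZ array 1, 3 or 4 or GATA-4 array 3 or 5 (0.0532 to 0.0786), and with median centring (0.0503). Of 5 mesothelium markers named on the array 2 were tested: Krt18, a keratin of simple epithelia, read 3.54 ± 1.44 (SD, n = 5) with LacZ and 7.28 ± 0.74 (SD, n = 5) with GATA-4, and Wt1 had a difference of -0.51 (SE 0.17, adjusted p = 0.108). Krt18 was above the filter only through its GATA-4 values, so its difference is a description. Of 2 Schwann cell and 2 adipocyte markers tested, 0 passed in limma (0 and 1 at an unadjusted p under 0.05). The part of these cells in the members' differences was not tested.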

How the data were processed

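Left ventricular RNA of 10 samples was read on Affymetrix rat arrays. The deposited values are linear probe set intensities made with GCOS, per the submitters' processing notes that name no version, scaling or detection calls. Of 31099 deposited probe sets 57 array controls were set aside. Genes were named through GEO's platform annotation (20826 probe sets with 1 gene, 436 with several, 9780 with none). Of the 20826 with 1 gene, 20758 were matched by gene ID to RefSeq.

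From the deposited intensities, log2 values were quantile normalised and floored at 0. Probe sets with a mean log2 signal above the 40th percentile (18625) were tested with limma 3.58.1 in R 4.3.3 (lmFit, eBayes with an intensity trend, no covariates), with Benjamini-Hochberg adjustment and a threshold of 0.05. Each gene is read by its brightest probe set that names 1 gene. The trimmed mean leaves out 2% of signals at each end. Ratios were tested by an exact two-sided permutation test. The fit was also run on simulated data with independent noise for each probe set and array. Those data held no dim array, so they do not show how the calls respond to one. Groups follow the source label, since all titles name GATA-4. The titles number the samples in a single run over both groups and give no replicate number within a group, so arrays were numbered 1 to 5 in each. The number of arrays limits the precision.

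The members and lists were chosen with earlier results of these data known. Every tested member is named; full values go to those past the threshold, the main chains and the 5 largest differences each way. Alternatives were the deposited scale, median centring, 16 added to the signals, other filters, no trend, array weights, averaged probe sets and leaving out arrays.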

Additional observations from a re-analysis of the deposited data

Results flagged for a closer look

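In 7 of 102 groups of 5 arrays (members and called genes of the other lists), 1 array's gap to its nearest neighbour, as a share of the group's range, was above Dixon's 95% critical value of 0.71; chance alone gives about 1 in 20 such groups. LacZ array 2 was the high one for 3 collagens: Col3a1 at 13.40 against 13.23 to 13.28 on the other LacZ arrays (share 0.724), Col4a1 at 11.92 against 11.69 to 11.75 (0.727) and Col6a1 at 11.09 against 10.74 to 10.82 (0.775). LacZ array 3 was low for Col18a1, at 7.91 against 8.27 to 8.40 (0.744). In the GATA-4 group, array 3 was low for Col5a3, at 8.33 against 8.99 to 9.24 (0.728), and the dim array 1 was low for Col4a5, at 9.36 against 9.94 to 10.14 (0.743). Among the macrophage markers, LacZ array 5 was high for Cd14, at 9.64 against 9.15 to 9.28 (0.743).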

How the results depend on the processing

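The count of members that rose, 2, became 0 on the deposited scale, 3 with a filter at the 60th percentile, 1 without the trend, 6 with array weights, 3 with probe sets averaged (Col1a1, Col5a1 and Col18a1, with Col12a1 and Lama5 under the filter) and 0 without GATA-4 arrays 4 and 5, whose sample numbers lie apart from the others, and 0 to 5 with 1 array left out. Of all genes, 0.0655% rose on the deposited scale, 5.06% with the stricter filter, 2.37% without the trend and 9.6% with array weights. That share was 4.98% with probe sets averaged and 1.03% without GATA-4 arrays 4 and 5, beside 3.71% in the main fit. With the 60th percentile filter and with probe sets averaged, only 30 members were tested. The count that fell, 2, became 0 on the deposited scale, without the filter, without the trend and without GATA-4 arrays 4 and 5, 1 with median centring, and 0 to 2 with 1 array left out. Of all genes, 2.66% fell in the main fit, 0% on the deposited scale, 1.12% without the filter and 0.87% without the trend. That share was 0.355% without GATA-4 arrays 4 and 5, 2.5% with median centring and 0.187% to 8.86% with 1 array left out. The members' median difference lay between 0.063 (median centring) and 0.15 (array weights) under these settings, apart from 0.16 with 16 added, without the filter or without the trend and 0.18 with the 60th percentile filter, and at 0.083 to 0.22 with 1 array left out. The number of ratios past the threshold was 0 in each setting run for them, a design in which a single ratio could not pass. Over the table, 988 probe sets changed, beside 9 as deposited, 619 without the filter, 539 without the trend, 2890 with array weights, 201 without GATA-4 arrays 4 and 5, and with 1 array left out 174 (LacZ array 3) to 2849 (GATA-4 array 1). Signs turned for small differences. As deposited these were Col3a1 (-0.015), Col6a1 (-0.014) and Agrn (-0.020), and with median centring the same genes (-0.017, -0.016 and -0.023). Array weights turned Col16a1 (-0.012) and Agrn (-0.034). Averaged probe sets turned Col6a2 (-0.0047), Col6a3 (0.18) and the ratios Col1a1 to Col1a2 (0.080), Col6a1 to Col6a2 (0.087), Col6a1 to Col6a3 (-0.096) and Lama4 to Lama5 (0.50). Without GATA-4 arrays 4 and 5, Col9a2 (0.15), Agrn (-0.038) and the ratio Col4a1 to Col4a2 (-0.031) turned. With 1 array left out, the range held both signs for Col6a1 (-0.017 to 0.19), Col6a2 (-0.053 to 0.28), Col6a3 (-0.037 to 0.034), Col16a1 (-0.010 to 0.062), Col26a1 (-0.22 to 0.081), Agrn (-0.060 to 0.12) and the ratios Col4a1 to Col4a2 (-0.019 to 0.14), Col1a1 to Col1a2 (-0.055 to 0.015) and Col6a1 to Col6a2 (-0.11 to 0.037). The causes were not tested. No paired analysis was possible because the labels give no replicate numbers shared by the groups. No detection calls were used, so a dim probe set's distance from background is not known.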
